A study of Homo sapiens with 4 samples.

Results

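Forkhead box (FOX) transcription factors were followed in MDA-MB-231 cells that had been grown long term in cadmium. The 10 genes FOXM1, FOXO1, FOXO3, FOXC1, FOXF2, FOXQ1, FOXP1, FOXK1, FOXK2 and FOXJ3 were chosen by name, and each matched 1 of the 61541 genes in the count table. MDA-MB-231 is an established human breast cancer line that lacks hormone receptors. The cadmium-resistant cells were selected by passaging in medium with cadmium sulfate, whose concentration was raised to 10 µM. The control cells were untreated cells of the same line, and their passaging is not described. No other agent or allele was given for either group. RNA was sequenced from 2 libraries per group (n = 2), all from a single line. The controls are called control 2 and control 3 after their numbers in the table, and the others cadmium 1 and cadmium 2. Only the control samples are labelled as biological replicates, so the p-values measure the spread between these libraries, which may be technical in part.

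Forkhead factors bind DNA through a winged-helix domain, the forkhead box, and most recognise a core of TGTTTAC or a close variant. FOXO proteins are kept in the cytoplasm while the kinase AKT is active and enter the nucleus under stress, where they switch on antioxidant and cell cycle arrest genes. FOXM1 drives the genes of mitosis, and FOXC1, FOXF2 and FOXQ1 are developmental regulators linked to epithelial-mesenchymal state. FOXP1 is mainly a repressor, while FOXK1 and FOXK2 recruit chromatin complexes and regulate metabolism. The study also asked which DNA motifs, forkhead motifs among them, lie at sites bound by the metal-responsive factor MTF-1, an assay not analysed here.

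Libraries held 51934729 to 61916007 counts, and the 10 genes had at least 320 counts in each. The controls stood apart from each other. Of the 12924 genes with a mean of 100 or more normalized counts (counts divided by a library size factor), 14.2% differed more than 2-fold between the controls, while 0.317% did so between the cadmium libraries. The mesenchymal markers VIM and CD44 were abundant, and the basal keratin KRT5 was listed at 0 throughout. The luminal and hormone receptor markers ESR1, PGR, GATA3, FOXA1 and CDH1 summed to 12.8 to 22.8 TPM (a level per exon length and library size) against 760 to 877 TPM for VIM and CD44. Most of this sum was GATA3, with 21.1 and 13.9 TPM in the controls and 13.4 and 10.9 TPM with cadmium. CDH1 had 7.91 TPM in control 3. FOXA1, the forkhead factor of luminal cells, had at most 14.8 normalized counts. The markers of immune, fibroblast and endothelial cells, PTPRC, COL1A1 and PECAM1, summed to 5.54 TPM in control 2 and 17.8 TPM in control 3, with 12.3 and 12.5 TPM in the cadmium libraries.

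Levels were set in order on the TPM scale. FOXM1 was the most abundant, with 223 and 289 TPM in the controls and 216 and 234 TPM with cadmium, and its mean over the libraries was 45 times that of FOXO1, the lowest. FOXQ1 came next with a mean of 98.3 TPM, but its range of 21.0 to 163 TPM overlapped that of FOXK2, which held within 63.1 to 67.7 TPM. FOXJ3 and FOXK1 followed with means of 44.6 and 41.1 TPM and overlapping ranges. The ranges of FOXO3 and FOXF2 also overlapped, at means of 26.9 and 24.2 TPM. FOXC1 had 14.0 TPM, below every value of FOXF2. FOXP1 and FOXO1 were lowest, with means of 9.09 and 5.34 TPM, and control 3 held more FOXO1 than control 2 held FOXP1. The exon lengths in the table sum all annotated exons, and the 32800 bases of FOXP1 make its TPM low for its reads.

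**Figure D1:**
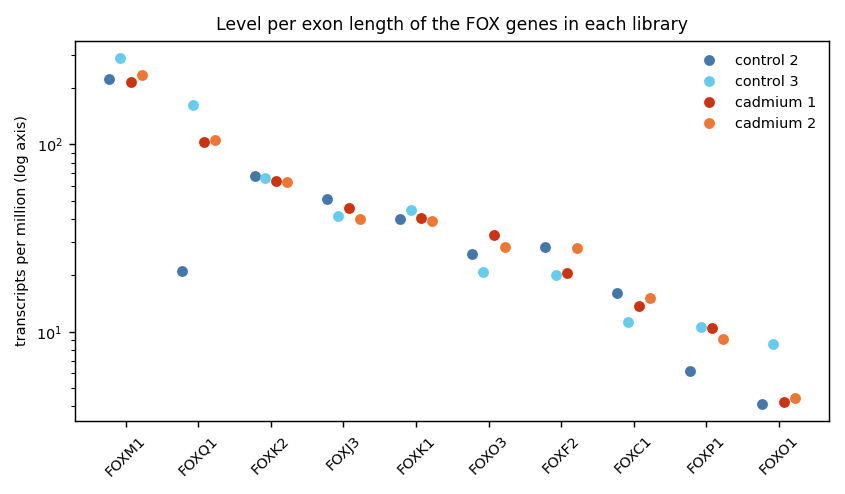
Level of each FOX gene in TPM (log axis) in the 4 libraries, ordered by mean, with 1 point per library. FOXM1 lies highest at 216 to 289 TPM, and the point for control 2 sets FOXQ1 apart at 21.0 TPM.

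The main comparison asked which FOX genes differed in the cadmium-resistant cells. None of the 10 was called by DESeq2 at an adjusted p below 0.1, where 1.13% of 19834 tested genes were called. None had an unadjusted p below 0.05 either, against 6.92% of tested genes. The quasi-likelihood test of edgeR and limma-voom gave no member an unadjusted p below 0.05, against 7.83% and 7.4% of the genes they tested, and both called 0 genes in the whole table. The smallest adjusted p of a member was 0.943 with DESeq2, 0.701 with edgeR and 0.717 with limma. The log2 fold change of cadmium over control was positive for 4 members and negative for 6, with a median of -0.08 against -0.03 for all genes with a mean of 10 or more. For 8 members the 95% interval lay within a 2-fold change in either direction, the exceptions being FOXO1 and FOXQ1.

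The groups did not overlap for 3 members. FOXO3 was higher in both cadmium libraries, as were 20.3% of tested genes, and FOXK1 and FOXK2 were lower in both, as were 19.9%. In either direction 40.3% of tested genes had groups that did not overlap. With 2 libraries against 2, a two-sided exact permutation test cannot give a p below 0.333, and these 3 genes reached that value.

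**Figure D2:**
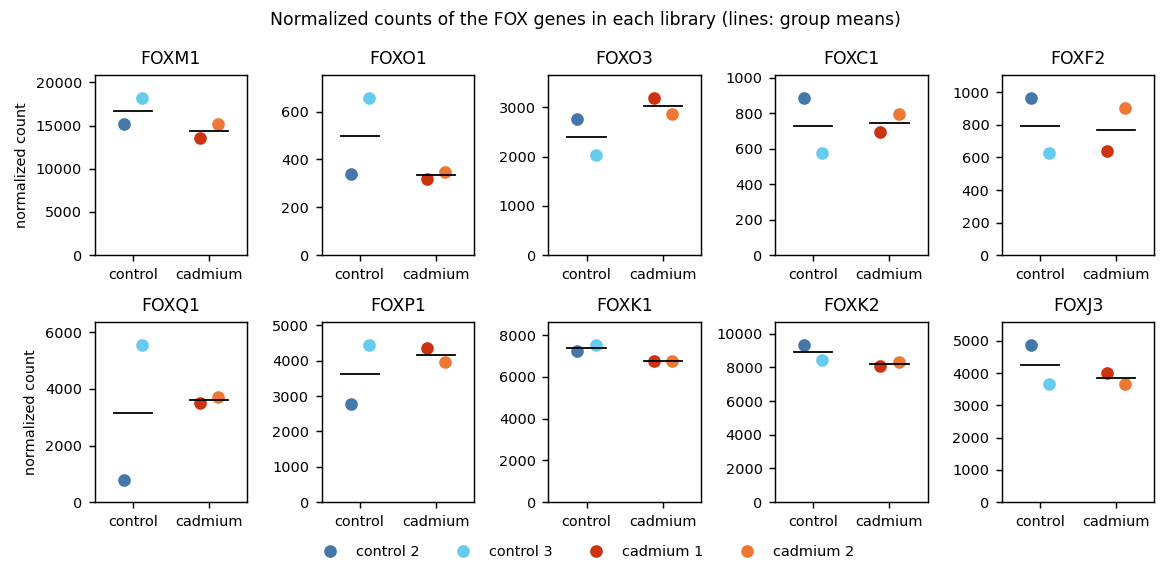
Normalized counts of the 10 FOX genes by group, with 1 point per library, lines at the group means and every axis starting at 0. FOXQ1 has 773 and 5547 in its controls, while both cadmium libraries lie between them at 3507 and 3710.

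All 10 members differed more between the controls than between the cadmium libraries, as did 81.9% of the 12924 genes. FOXQ1 differed 7.18-fold between the controls, a wider gap than that of 98.3% of those genes. FOXO1 followed at 1.93-fold, FOXP1 at 1.59-fold, and FOXC1 and FOXF2 at 1.54-fold. The narrowest gaps were those of FOXK1 and FOXK2, at 1.04-fold and 1.10-fold. The widest gap between the cadmium libraries was that of FOXF2, at 1.41-fold. Control 3 was nearer than control 2 to the cadmium mean for 5 of the 10 members, and for 65.2% of the 12924 genes.

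FOXQ1, FOXF2 and FOXC1 lie beside each other near one end of chromosome 6, within 301800 bases. FOXQ1 (ENSG00000164379) spans 1312098 to 1314758, FOXF2 (ENSG00000137273) 1389576 to 1395603 and FOXC1 (ENSG00000054598) 1609915 to 1613897, all on the plus strand of hg38. The 250 bases before each start, from RefSeq on GRCh38.p14, are shown because these genes share a location while their counts differed between the controls in opposite directions. They are chr6:1311848-1312097, chr6:1389326-1389575 and chr6:1609665-1609914 in that order, on the plus strand. Capitals mark the metal response element core TGCGCNC on either strand.
FOXQ1: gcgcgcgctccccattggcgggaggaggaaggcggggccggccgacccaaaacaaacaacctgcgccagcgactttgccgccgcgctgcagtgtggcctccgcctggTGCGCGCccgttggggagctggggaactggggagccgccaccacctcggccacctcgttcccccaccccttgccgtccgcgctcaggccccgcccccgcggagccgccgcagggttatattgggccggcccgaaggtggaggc
FOXF2: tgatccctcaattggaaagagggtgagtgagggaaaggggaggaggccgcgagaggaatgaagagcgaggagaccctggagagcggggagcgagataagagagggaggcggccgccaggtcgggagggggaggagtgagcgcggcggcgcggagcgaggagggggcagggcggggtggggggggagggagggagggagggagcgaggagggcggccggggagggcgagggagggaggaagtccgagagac
FOXC1: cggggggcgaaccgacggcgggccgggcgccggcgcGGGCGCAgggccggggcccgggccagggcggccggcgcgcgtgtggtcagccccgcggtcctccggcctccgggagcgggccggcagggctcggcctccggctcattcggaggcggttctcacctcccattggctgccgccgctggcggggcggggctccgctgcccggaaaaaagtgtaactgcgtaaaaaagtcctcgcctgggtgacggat
The core lies 143 bases before the start of FOXQ1 and, on the other strand, 214 bases before that of FOXC1, and these letters are not in the FOXF2 window. Of 35116 promoters of this length, 16.8% hold it. RefSeq windows were found for 9 of the 10 members, all but FOXM1, and there were 19 of them because FOXO3, FOXP1 and FOXJ3 have several starts. Searched on both strands, TGCGCNC was in 4 of the 19 and its other form TGCACNC in 3 (9.87% of all promoters). The AP-1 site TGACTCA was in 1 (4.2%), the forkhead core TGTTTAC in 1 (2.98%) and its variant TGTTTGC in 0 (3.23%). That forkhead core lay 193 bases before a start inside FOXP1. No match overlapped another in these windows, and binding was not measured.

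FOXQ1, a factor linked to epithelial-mesenchymal transition, had 773 normalized counts in control 2 and 5547 in control 3, and the cadmium libraries had 3507 and 3710. Control 2 was low, and both cadmium libraries lay between the controls. The log2 fold change was 0.19 ± 1.20 (SE, n = 2 per group) with a 95% interval of -2.16 to 2.54 (adjusted p = 1.00, DESeq2), and limma-voom put it at 0.84. It changed sign with the control that was kept, being -0.62 without control 2 (adjusted p = 1.34e-04, DESeq2) and 2.21 without control 3 (adjusted p = 2.75e-42, DESeq2). In such fits the lone control is assumed to vary as little as the 2 cadmium libraries did, and 15% of tested genes were called without control 2 and 31.2% without control 3. PECAM1 and PTPRC were also lowest in control 2 and highest in control 3, with PECAM1 at 160 and 842 normalized counts in the controls and 686 and 641 with cadmium. The part of those cell type markers in the FOXQ1 values was not tested.

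FOXC1, used as a marker of basal-like breast cancer, had 885 normalized counts in control 2 and 574 in control 3, and 693 and 795 with cadmium. FOXF2, a regulator of mesenchymal development, had 964 and 626 in those controls and 639 and 901 with cadmium. For both genes control 2 was highest and control 3 lowest, the reverse of FOXQ1, and the cadmium libraries lay between. The log2 fold changes were 0.03 (95% interval -0.65 to 0.70) for FOXC1 and -0.05 (95% interval -0.76 to 0.67) for FOXF2 (adjusted p = 1.00 for both, DESeq2). FOXC1 and FOXF2 were nearest to each other among the members, with a root mean square difference of 0.11 between their centred log2 values over the 4 libraries. Members on different chromosomes were as near by this measure, FOXM1 to FOXK1 at 0.10 and FOXJ3 to FOXK2 at 0.11. MIR6720, a microRNA gene with no reads, shares 98 exon bases with FOXF2 on the other strand, and FOXC1 and FOXQ1 share none with another gene. The 4 other genes around this cluster with a mean of 100 or more (DUSP22, EXOC2, GMDS and GMDS-DT) had log2 ratios of control 3 over control 2 from -0.92 to 0.30, against 2.84 for FOXQ1.

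The FOXO genes had fold changes of opposite sign, neither past the threshold. FOXO3 (ENSG00000118689, chromosome 6, 108559835 to 108684774, plus strand), an activator of arrest and antioxidant genes, had 2760 normalized counts in control 2 and 2033 in control 3, and 3185 and 2868 with cadmium. Both cadmium libraries were above both controls, though cadmium 2 exceeded control 2 by only 0.06 on the log2 scale. The log2 fold change was 0.34 ± 0.29 (SE) with a 95% interval of -0.23 to 0.91 (adjusted p = 1.00, DESeq2). It was positive with each library left out, from 0.12 to 0.57, and was called only without control 2 (0.57, adjusted p = 0.00436, DESeq2). FOXO3B, a near copy on chromosome 17, was assigned 187 and 91 reads in the controls and 121 and 123 with cadmium, which is 3.78% to 6.41% of the FOXO3 reads. Reads that matched several places were dropped and their number is not known, so the counts of FOXO3 are uncertain.

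FOXO1 (ENSG00000150907, chromosome 13, 40555667 to 40666641, minus strand), which is also restrained by insulin and AKT signalling, had 340 normalized counts in control 2 and 656 in control 3, and 318 and 348 with cadmium. Control 3 was high and the other libraries were alike, so the groups overlapped. The log2 fold change of -0.58 ± 0.42 (SE) had the largest size among the members, with a 95% interval of -1.39 to 0.23 (adjusted p = 0.943, DESeq2). It was -0.98 without control 2 (adjusted p = 0.00786, DESeq2) and -0.04 without control 3 (adjusted p = 0.961, DESeq2). Another annotated gene, ENSG00000288542, shares 22.7% of the exon bases on the same strand and had no reads, and reads that touch both genes are dropped.

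FOXM1 (ENSG00000111206, chromosome 12, 2857680 to 2877174, minus strand), the mitotic activator, had 15132 normalized counts in control 2 and 18179 in control 3, and 13516 and 15207 with cadmium. Cadmium 1 was below both controls, and cadmium 2 was close to control 2. The log2 fold change was -0.21 ± 0.26 (SE) with a 95% interval of -0.72 to 0.30 (adjusted p = 1.00, DESeq2). It was negative with each library left out, from -0.34 to -0.09, and was called only without control 2 (-0.34, adjusted p = 0.0470, DESeq2). ITFG2 on the other strand shares 15.9% of the exon bases of FOXM1, and the counting ignored strand.

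FOXK1 (ENSG00000164916, chromosome 7, 4682295 to 4771442, plus strand) and FOXK2 (ENSG00000141568, chromosome 17, 82519713 to 82644662, plus strand) are close relatives. FOXK1 had 7240 normalized counts in control 2 and 7519 in control 3, and 6761 and 6763 with cadmium. FOXK2 had 9330 and 8458 in those controls and 8091 and 8327 with cadmium. Both cadmium libraries lay below both controls for each gene, by a small margin. The log2 fold changes were -0.13 (95% interval -0.59 to 0.34) for FOXK1 and -0.12 (95% interval -0.59 to 0.36) for FOXK2 (adjusted p = 1.00 for both, DESeq2), and no library left out gave a call. Their centred values were the nearest of any pair of members, at a root mean square difference of 0.07 on the log2 scale. This measure is small for any genes that vary little between libraries. Control 3 was above control 2 for FOXK1 and below it for FOXK2. Other genes share 14.1% of the exon bases of FOXK2 on the other strand. Of these, 1190 bases are shared with ENSG00000261845, which had no reads, and 53 with WDR45B, which had 8278 to 10678 reads. FOXK1 shares none with another gene.

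FOXP1 (ENSG00000114861, chromosome 3, 70954693 to 71583978, minus strand), a repressor, had 2789 normalized counts in control 2 and 4444 in control 3, and 4368 and 3969 with cadmium. Control 2 was low and the cadmium libraries lay between the controls, as for FOXQ1. The log2 fold change was 0.21 ± 0.33 (SE) with a 95% interval of -0.43 to 0.84 (adjusted p = 1.00, DESeq2). It was -0.09 without control 2 and 0.57 without control 3 (adjusted p = 7.40e-04 for the latter, DESeq2). Genes with at most 7 reads in a library share 7.91% of its exon bases. FOXJ3 (ENSG00000198815, chromosome 1, 42176539 to 42335877, minus strand), known from muscle and germ cells, had 4865 in control 2 and 3658 in control 3, and 4013 and 3665 with cadmium. Here control 2 was high, and the cadmium libraries again lay between the controls. FOXJ3 had a log2 fold change of -0.15 (95% interval -0.70 to 0.40, adjusted p = 1.00, DESeq2). It was 0.07 without control 2 and -0.35 without control 3 (adjusted p = 0.0483 for the latter, DESeq2).

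**Figure D3:**
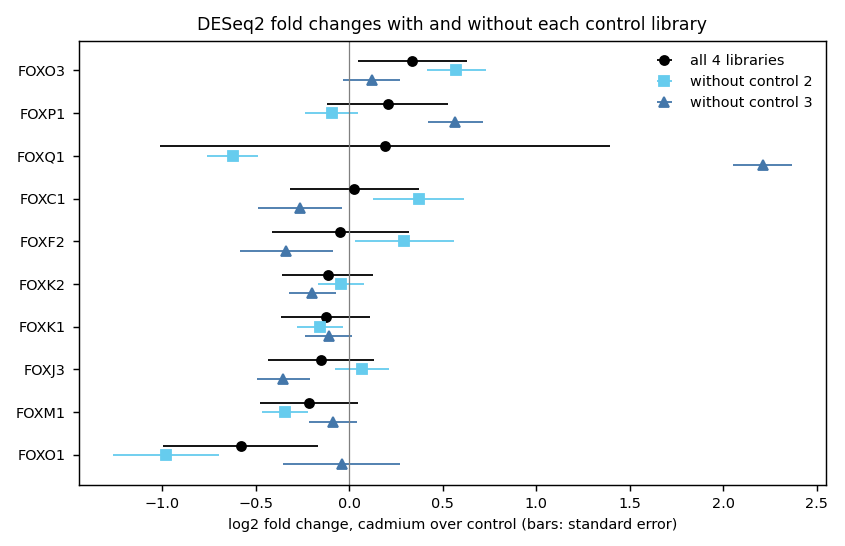
DESeq2 log2 fold changes of cadmium over control with standard errors for the 10 FOX genes, with all 4 libraries and without each control library. FOXQ1 moves from -0.62 without control 2 to 2.21 without control 3, while FOXK1 stays between -0.15 and -0.11.

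Each member was then set beside its chromosomal surroundings. The log2 ratio in every pairing of a cadmium with a control library, centred on the median of the 12924 genes, was read beside the median of the 40 nearest of those genes. The 4 pairings share libraries, so the values are a description. FOXK1 was at -0.15 to -0.02 and its neighbours on chromosome 7 at -0.31 to -0.27, so that FOXK1 lay above them in all 4 pairings, by 0.15 to 0.28. FOXO3 lay above its neighbours in all 4, by 0.04 to 0.75, and FOXM1 below its own in all 4, by 0.11 to 0.36. These 3 directions also held with 20 or 80 neighbours. By the mean log2 ratio, 77.5% of the 40 neighbours lay below FOXK1, 90% below FOXO3 and 25% below FOXM1. The share of all genes on one side of their neighbours in all 4 pairings was not computed, so these members are not shown to stand out.

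The genes around the cluster on chromosome 6 had medians of 0.10 to 0.28. FOXQ1 was above them by 2.13 and 2.22 against control 2 and below them by 0.90 and 0.86 against control 3. FOXC1 was below them by 0.42 and 0.21 against control 2 and above them by 0.07 and 0.21 against control 3. FOXF2 ranged from 0.66 below to 0.27 above. FOXO1 was below its 40 neighbours by 1.14 and 0.97 against control 3, but by 0.12 below and 0.04 above against control 2. FOXP1 was above its own by 0.68 and 0.56 against control 2 and below them by 0.08 and 0.21 against control 3. FOXK2 differed from its 40 neighbours by at most 0.04, and from 80 neighbours by up to 0.25. FOXJ3 lies among genes that differed between the controls, with a median centred log2 ratio of control 3 over control 2 of -0.73 for the neighbours and -0.35 for FOXJ3. Of 189 tested genes within 1 Mb of a member, the members left out, 1 was called, or 0.529%, against 1.13% of all tested genes. It was TIE1, which encodes an endothelial receptor, 965105 bases from FOXJ3, and it rose from 5.68 and 18.1 normalized counts in the controls to 347 and 343 with cadmium (log2 fold change 4.88 ± 0.56 (SE), adjusted p = 1.11e-14, DESeq2).

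**Figure D4:**
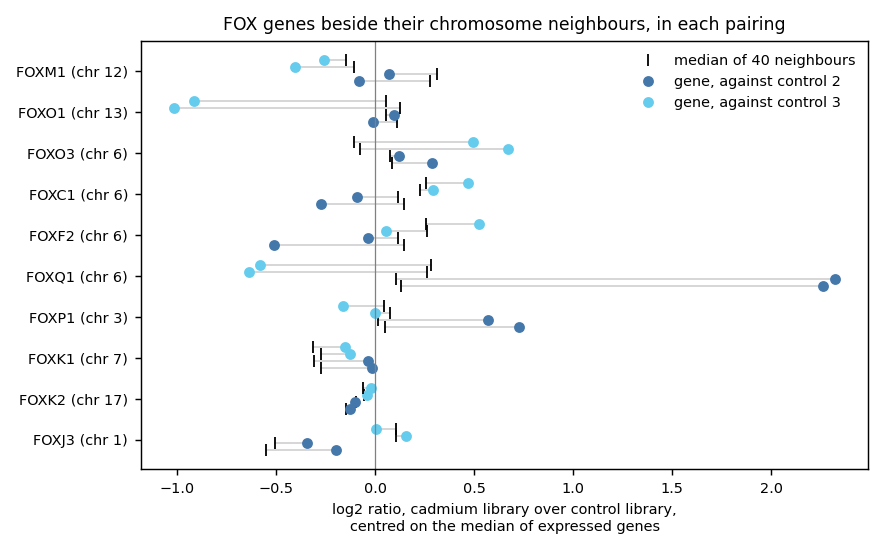
Log2 ratio of each cadmium library over each control library for the FOX genes (points) and the median of their 40 chromosome neighbours (ticks), centred on the 12924 genes. FOXK1 lies to the right of its neighbours in every pairing, and FOXQ1 lies far to the right of its own against control 2 and to the left against control 3.

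The remaining 40 FOX genes were read from the same fit. Of them 6 had no read in any library, 16 had a mean of 10 or more normalized counts and 8 a mean of 100 or more. DESeq2, edgeR and limma-voom called 0 of them, and DESeq2 gave 3 of the 18 tested an unadjusted p below 0.05, against 6.92% of tested genes. Of the 16, 9 were higher and 7 lower, with a median log2 fold change of 0.11 that became -0.04 without cadmium 2. FOXP2, a repressor related to FOXP1, had 343 and 540 normalized counts in the controls and 240 and 194 with cadmium, a log2 fold change of -1.03 ± 0.39 (SE, adjusted p = 0.323, DESeq2). FOXO4 had 511 and 463 in the controls and 686 and 800 with cadmium, a log2 fold change of 0.61 ± 0.29 (SE, adjusted p = 0.653, DESeq2). FOXD2 was the third, with 134 and 67.0 in the controls and 23.9 and 27.6 with cadmium (adjusted p = 0.136, DESeq2). The groups did not overlap for these 3 genes, nor for 8 of the 16 in all (5 higher and 3 lower), against 40.3% of tested genes. With a control left out, FOXP2 was called without control 2 and FOXO4 without either.

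FOXA2, a pioneer factor of endoderm, had 792 normalized counts in control 2 and 6372 in control 3, and 5202 and 5198 with cadmium. Its controls lay 8.05-fold apart with control 2 low, as for FOXQ1, and its log2 fold change of 0.54 ± 1.25 (SE) was -0.30 without control 2 and 2.70 without control 3 (adjusted p = 2.14e-73 for the latter, DESeq2). FOXO6 had its controls the other way round, with 325 in control 2 and 20.2 in control 3 against 44.8 and 64.2 with cadmium, and its log2 fold change of -1.66 ± 0.97 (SE) became 1.43 without control 2. The log2 fold changes of FOXP4, FOXN3, FOXJ2 and FOXN2 were 0.07, 0.14, -0.14 and -0.15 (adjusted p = 1.00 for each, DESeq2). FOXN3 and FOXO6 were called without control 3.

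Genes that FOXM1 activates or works with in mitosis were mostly lower. All 26 listed genes were measured, that is, had a mean of 10 or more. Of these 21 had a negative and 5 a positive log2 fold change, and 53.0% of all measured genes were negative. The 26 genes had a median of -0.27, against -0.03 for all measured genes. Their median ran from -0.34 to -0.16 with each library left out. The groups did not overlap for 10 lower genes, or 38.5%, and for 1 higher gene, or 3.85%, against 20.4% lower and 20.1% higher among all measured genes. The 26 genes were read in the same 4 libraries, so they are not independent observations. DESeq2 gave 3 of the 26 an unadjusted p below 0.05, against 6.92% of tested genes. DESeq2 called 1 gene, in the lower direction, where 0.534% of tested genes were called. It was MYBL2, which encodes B-Myb, a partner that brings FOXM1 to mitotic promoters. It fell from 12256 and 8414 normalized counts in the controls to 3162 and 4118 with cadmium (log2 fold change -1.51 ± 0.32 (SE), adjusted p = 9.09e-04 in DESeq2 and 0.620 in edgeR). The call was lost without cadmium 1 (log2 fold change -1.33, adjusted p = 1.00, DESeq2) and without cadmium 2 (log2 fold change -1.71, adjusted p = 0.474, DESeq2), fits that called 17 and 14 genes in all. CENPA, the centromeric histone, had 2647 and 1481 in the controls and 1100 and 1206 with cadmium (adjusted p = 0.493, DESeq2). Its controls also differed, with a log2 ratio of control 3 over control 2 of -0.84. The 1 higher gene whose groups did not overlap was CENPF, with 31339 and 33656 in the controls and 35111 and 37086 with cadmium (log2 fold change 0.15).

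Of 36 FOXO target genes 33 were measured, 18 higher and 15 lower, with a median log2 fold change of 0.04. PCK1 and G6PC1 had no reads, and SOD2 was not read because its symbol matched no gene. The groups did not overlap for 10 higher genes, or 30.3%, and for 6 lower genes, or 18.2%. Among all measured genes the shares were 20.1% higher and 20.4% lower. The list does not say whether a FOXO protein raises or lowers each gene, so these counts do not measure FOXO activity. DESeq2 called 1, in the higher direction, where 0.6% of tested genes were called. TXNIP, whose product binds thioredoxin and restrains glucose uptake, rose from 8475 and 7941 normalized counts in the controls to 14670 and 14055 with cadmium (log2 fold change 0.81 ± 0.24 (SE), adjusted p = 0.0804 in DESeq2 and 0.620 in edgeR). This call was lost without cadmium 1 or cadmium 2, where the log2 fold change was 0.77 and 0.83 (adjusted p = 1.00 in both, DESeq2), and at a threshold of 0.05. Of the 33 targets 4 had an unadjusted DESeq2 p below 0.05, against 6.92% of tested genes. The 3 other than TXNIP did not pass the adjustment. SESN3, a sestrin, had 255 and 553 in the controls and 718 and 842 with cadmium (adjusted p = 0.572, DESeq2), and the mitophagy kinase gene PINK1 had 1337 and 1647 against 2221 and 2415 (adjusted p = 0.493, DESeq2). TNFSF10, which encodes the death ligand TRAIL, had 2875 and 736 against 607 and 636 (adjusted p = 0.278, DESeq2).

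Of the 30 genes that regulate FOXO proteins (kinases, 14-3-3 proteins and ubiquitin enzymes among them), 14 were higher and 16 lower, with a median log2 fold change of -0.02. DESeq2 and edgeR called 0, and 1 of the 30 had an unadjusted DESeq2 p below 0.05, against 6.92% of tested genes. It was SKP2, which marks FOXO1 for degradation and is also in the mitotic list, with 4557 and 3051 normalized counts in the controls and 2171 and 2570 with cadmium (log2 fold change -0.68 ± 0.32 (SE), adjusted p = 0.601, DESeq2). For YWHAH and PIK3R1 the values were -0.37 and 0.38 (adjusted p = 0.946 and 0.953, DESeq2). Without control 3 SKP2 and YWHAH were called, and without control 2 PIK3R1 was.

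Of 22 partner genes of the FOXK and FOXP proteins 21 were measured, 3 higher and 18 lower, or 85.7% lower against 53.0% of all measured genes. Their median log2 fold change was -0.03, and that of all genes also rounds to -0.03. The median was 0.04 without control 2 and -0.14 without control 3. DESeq2 and edgeR called 0, and 0 had an unadjusted DESeq2 p below 0.05, against 6.92% of tested genes. SIN3A, a co-repressor scaffold, had a log2 fold change of -0.54 (adjusted p = 0.811, DESeq2), and CTBP1 and HDAC1 had -0.36 and -0.29. SIN3A, CTBP1 and OGT were called without control 3, and HDAC1 without control 2. OGT, the enzyme that adds O-linked GlcNAc, had 8913 normalized counts in control 2 and 20181 in control 3, and 21351 and 18280 with cadmium, another gene with control 2 low.

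Of 16 genes linked to FOXC1, FOXF2 and FOXQ1 in epithelial-mesenchymal state 11 were measured, 5 higher and 6 lower. Their median log2 fold change of -0.18 became 0.24 without control 2. DESeq2 and edgeR called 0, and 1 of the 11 had an unadjusted DESeq2 p below 0.05, against 6.92% of tested genes. It was CDH2, which encodes N-cadherin, with 39.7 and 29.8 normalized counts in the controls and 102 and 75.0 with cadmium (log2 fold change 1.34 ± 0.57 (SE), adjusted p = 0.480, DESeq2). CDH1, which encodes E-cadherin, had 107 in control 2 and 615 in control 3, and 169 and 119 with cadmium. FGFR4 had 680 and 78.7 in those controls and 160 and 143 with cadmium, and VIM had a log2 fold change of -0.26. CDH1 was called without control 2, and FGFR4 and VIM without control 3.

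Genes with patterns like those of FOXO1 and FOXO3, the members with the largest DESeq2 log2 fold changes in size (limma-voom put FOXQ1 first, at 0.84), were sought among 14357 genes with a mean of 50 or more, by the root mean square difference of centred log2 values over the 4 libraries. For FOXO1 they were PLCE1, PTPRJ and SSBP2, at 0.04, 0.05 and 0.05, each with control 3 high. For FOXO3 they were TNRC6C, TWNK and CLCN7, at 0.02, 0.03 and 0.03, each with control 3 low.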

How the data were processed

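RNA-seq was performed on 2 control and 2 cadmium libraries of MDA-MB-231 cells. The authors trimmed adaptors, aligned read pairs to hg38 with HISAT2 and assigned reads to Ensembl v105 genes with featureCounts 2.0.1. The deposited values are raw counts per gene. By the header's command, strand was ignored, reads matching several places or genes were dropped and mates were counted singly, so that 1 fragment can give 2 counts. Exon length, an annotation column of the deposited table, was used here for TPM. Size factors ran from 0.940 to 1.06.

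Symbols matched 61369 of 61541 genes. DESeq2 1.42.0 in R 4.3.3 was fitted over all genes (design: group, two-sided Wald test, Benjamini-Hochberg adjustment, threshold 0.1), the tool the study used. Independent filtering removed genes with a mean below 7.65. Alternatives were edgeR 4.0.16 (quasi-likelihood, TMM), limma 3.58.1 (voom), other size factors, filters and thresholds, halved counts and each library left out. The fits were tested on simulated data in which both groups of a gene had the same spread. The real controls differed more than the cadmium libraries, so this does not show how the fits behave on these data. The members and gene lists were chosen with earlier results of these data known. Named were all members, other FOX genes with a mean of 100 or more, called genes of each list (otherwise up to 4 with the lowest p), called neighbours and overlapping genes. FOXD2, CENPA, CENPF, SESN3, PINK1, TNFSF10, FOXO3B and the genes around the chromosome 6 cluster were named after their values were seen. One gene that this rule names is not reported here.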

Additional observations from a re-analysis of the deposited data

How the results depend on the processing

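No paired analysis was possible because controls are numbered 2 and 3 in the table and 1 and 2 in the labels, so a control number could not be tied to a cadmium number. Of 70 alternative log2 fold changes of the members that used all libraries, 69 kept their direction and their side of the threshold, and that of FOXF2 became 0.014 with upper-quartile factors. The setting without independent filtering alters only the adjusted p, so its fold changes could not differ. With a library left out, the log2 fold change ranged from -0.26 to 0.37 for FOXC1, -0.34 to 0.30 for FOXF2, -0.62 to 2.21 for FOXQ1, -0.094 to 0.57 for FOXP1 and -0.35 to 0.068 for FOXJ3, and the other 5 members kept their sign. Members called ranged from 0 to 4, with 4 without control 2 and 3 without control 3. Over all genes DESeq2 called 225, 119 higher and 106 lower, and with upper-quartile factors 152 and 88. The edgeR and limma-voom tests called 0, that is 0 higher and 0 lower, with 1506 and 1423 genes at an unadjusted p below 0.05. With a library left out 14 to 6189 genes were called, 9 to 2678 of them higher and 5 to 3511 lower. The median log2 fold change of the 26 measured FOX genes was -0.01, became -0.081 at a mean of 50 or more, and ranged from -0.10 to 0.11 with a library left out, while that of the members became 0.01 without cadmium 1. By reads without length, 3 of 10 members kept their rank. Of the members 6 lay above their chromosome neighbours on average, and 5 to 7 did so in the alternatives. The causes were not tested.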
